A study of Mus musculus with 12 samples.

Results

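The 42 genes described here carry a Trim symbol and encode tripartite motif (TRIM) proteins of the mouse. They were taken from the usable rows of a gene count table, as the symbols that start with Trim and a digit, without a pseudogene mark, and that had 60 or more counts summed over 12 libraries. Of 67 Trim symbols in those rows, 42 met this rule and 25 did not. All 42 are annotated as protein coding, and 14 of them lie on chromosome 7 and 9 on chromosome 11.

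Most TRIM proteins are E3 ubiquitin ligases: an N-terminal RING domain takes ubiquitin from an E2 enzyme, B-box zinc fingers and a coiled coil drive assembly into dimers and lattices, and a variable C-terminal domain, often of the SPRY type, picks the substrate. In macrophages several members act on the RNA and DNA sensors RIG-I, MDA5, cGAS and STING, and others on TAK1 and NF-kB signalling. A number of TRIM genes are themselves induced by interferon. One group forms a tandem array on mouse chromosome 7, where the mouse has more copies of the Trim5, Trim12 and Trim30 types than humans have.

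RNA was sequenced from bone-marrow-derived macrophages (BMDMs), primary cells grown from C57BL/6N marrow for 7 days in L929-conditioned medium. The 4 groups of 3 libraries were WT cells with ADP-Hep, WT cells with PBS, Alpk1 knockout (KO) cells with ADP-Hep and KO cells with PBS, each after 4 h. ADP-Hep (ADP-heptose, 100 µM) is a sugar nucleotide of Gram-negative bacteria. ALPK1 is the cytosolic kinase that binds it and, by phosphorylating the adaptor TIFA, turns on NF-kB. The labels do not say whether libraries of a group came from separate mice or cultures, so the p-values reflect only the spread among these libraries, and that spread may be technical. In bulk RNA, fewer cells that express a gene and less RNA per cell cannot be told apart.

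Libraries held 16110654 to 31333973 counts in all and 12307826 to 25742912 in the rows used. Below these rows the KO columns sat 1 row under the gene identifiers, and 19206 rows were left out, so any Trim gene there was not analysed here. The TRIM members together took 0.176 to 0.190% of the counts used in WT ADP-Hep libraries, against 0.172% in each WT PBS library, and 0.186 to 0.188% in KO ADP-Hep libraries, against 0.165 to 0.168% in KO PBS libraries. Alpk1 mRNA, in CPM (counts scaled by library size), had 19.2 to 22.4 CPM in KO libraries with ADP-Hep and 20.2 to 22.3 CPM in KO libraries with PBS, against 52.3 to 55.2 CPM in WT libraries with ADP-Hep and 25.8 to 32.1 CPM in WT libraries with PBS. Reads over the gene thus remained in every KO library, and the labels do not give the deleted part. All 8 macrophage markers were detected in every group, at a summed 25731 to 26450 CPM in KO ADP-Hep, 26563 to 27431 CPM in KO PBS, 28709 to 29590 CPM in WT ADP-Hep and 24806 to 26748 CPM in WT PBS libraries. The sums hide that single macrophage markers moved both ways with ADP-Hep in WT cells, by -2.28 to 3.56 on the log2 scale. The 8 neutrophil markers summed to 166 to 175 CPM, 236 to 265 CPM, 195 to 215 CPM and 199 to 217 CPM in the same 4 groups. The 5 B cell markers, of which 2 were at 0, summed to 14.9 to 15.4 CPM in KO ADP-Hep libraries, against 7.68 to 10.6 CPM in WT ADP-Hep libraries, and reached at most 17.9 CPM. The 6 T and NK cell markers, of which 2 were at 0, summed to 2.52 to 3.30 CPM in KO ADP-Hep libraries, against 0.896 to 1.11 CPM in WT ADP-Hep libraries, and reached at most 3.78 CPM. The 4 progenitor markers summed to 5.81 to 6.96 CPM in KO ADP-Hep libraries, against 8.54 to 11 CPM in WT ADP-Hep libraries, and reached at most 13.6 CPM. Under ADP-Hep the genotypes thus did not overlap for these 3 lists, nor for the macrophage, neutrophil, dendritic cell and erythroid lists. Of all genes taken singly, 68.6% did not overlap there. Under PBS the neutrophil sums were apart too, as were the T and NK cell sums (KO 3.47 to 3.78 CPM, WT 1.91 to 2.56 CPM). Progenitor sums under PBS were 7.41 to 8.64 CPM in KO and 10.7 to 13.6 CPM in WT libraries. Dendritic cell, fibroblast and erythroid markers each summed to at most 2.28 CPM in any library. The part of these other cells in the TRIM values was not tested.

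At the lower edge of the rule, Trim66 had 78 counts over the 12 libraries and was kept, and Trim29 had 58 and was not. Of the 25 symbols below it, 9 had 0 counts (Trim10, Trim40, Trim42, Trim52, Trim54, Trim58, Trim60, Trim71 and Trim80). The muscle ligases Trim54, Trim55 and Trim63, the neuronal Trim9 and Trim67 and the erythroid Trim58 are among these 25, with at most 31 counts each. Trim38, a reported brake on TLR and RIG-I signalling, had 9 counts and Trim31, a MAVS ligase, had 4. The other low symbols were Trim15 with 37 counts, Trim34b with 17, Trim43a with 14, Trim43b with 4, Trim43c with 43, Trim50 with 9, Trim69 with 32, Trim72 with 4 and Trim75 with 8. Of the 42 members, 41 passed the filter on low counts and were tested; Trim66, a RING-less chromatin cofactor, did not.

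Levels were compared between genes as CPM per kb of merged exon. The 3 members with the highest mean over all 12 libraries were Trim30a (40.3 CPM per kb), Trim25 (38.7) and Trim8 (37.3), followed by Trim28 (32.0), Trim35 (30.8) and Trim41 (21.1). Trim30a is a mouse gene reported to restrain TLR signalling by acting on TAB2 and TAB3, Trim25 is the ligase that attaches K63-linked chains to RIG-I, and Trim8 is a ligase reported to act on TAK1 in human cells. The order at the top differed between groups. Trim30a was first in WT ADP-Hep cells (66.04 ± 7.52 CPM per kb, SD, n = 3) and the fifth in WT PBS cells (29.4 ± 1.2), and likewise first in KO ADP-Hep cells (41.4 ± 0.599) and the fifth in KO PBS cells (24.5 ± 1.78). Trim25 led in WT PBS cells (40.5 ± 0.957 CPM per kb), where the next gene Trim8 (38.8 ± 1.78) lay within their summed SDs. Trim8 led in KO PBS cells (39.8 ± 1.69 CPM per kb), within the summed SDs of Trim28 (36.9 ± 1.85). Down the whole order, 25 of 41 neighbouring pairs lay within their summed SDs in WT ADP-Hep, 28 in WT PBS, 27 in KO ADP-Hep and 27 in KO PBS cells, so most neighbours could not be ranked. At the low end stood Trim17 (0.223 CPM per kb), Trim30b (0.189), Trim7 (0.10) and Trim66 (0.0369).

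**Figure D1:**
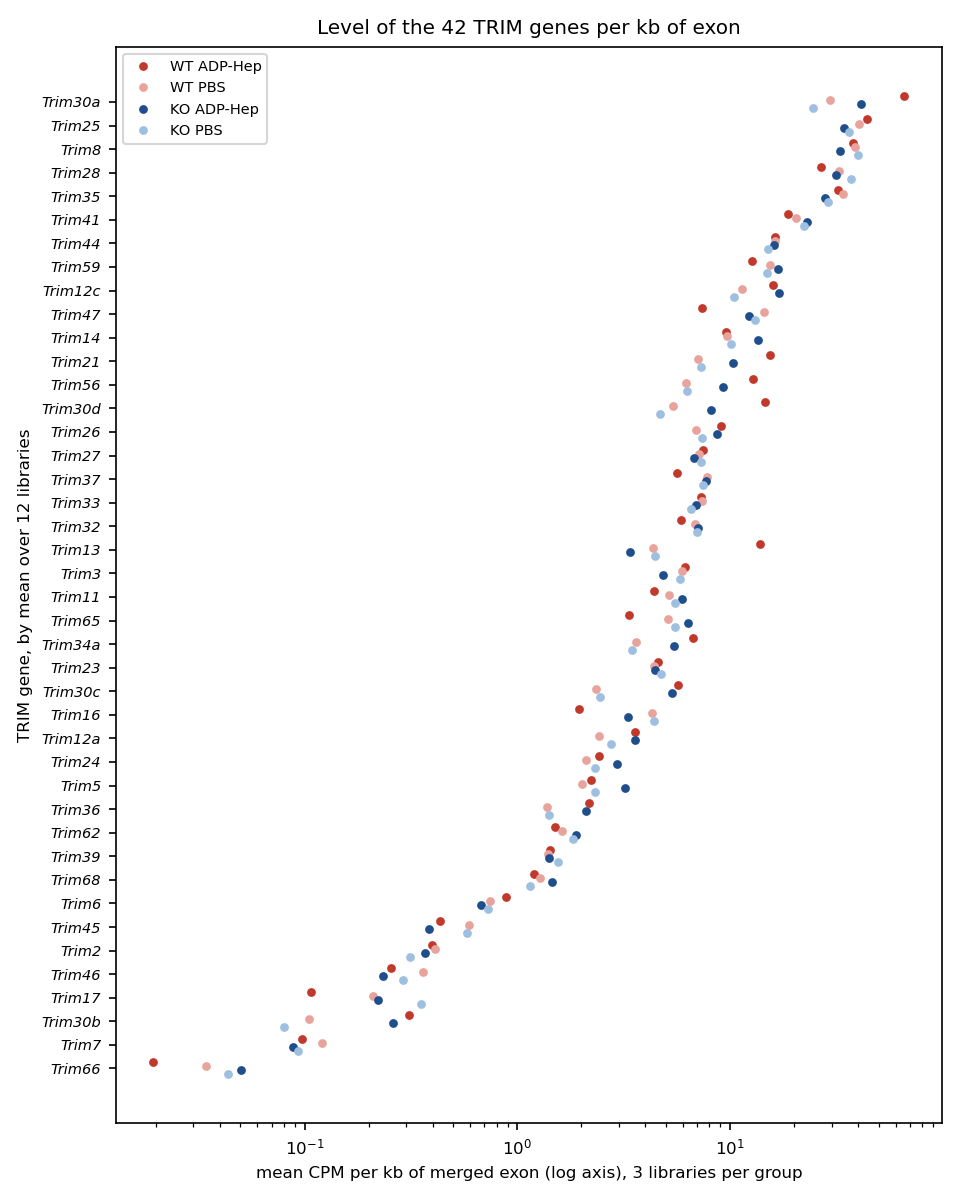
Mean level of the 42 TRIM genes in CPM per kb of merged exon (log axis), 1 point per group of 3 libraries, ordered by the mean over 12 libraries. Trim30a stands at the top with 40.3 and Trim66 at the bottom with 0.0369, and the WT ADP-Hep point of Trim13 lies far to the right of its other 3 points.

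The array on chromosome 7 holds 9 members within 104218793 to 104507849 (mm10), in the order Trim6, Trim34a, Trim5, Trim12a, Trim12c, Trim30b, Trim30c, Trim30a and Trim30d. Trim21 lies outside it on the same chromosome, at 102557921 to 102565486. The RefSeq promoter table (GRCm38.p6, the mm10 build) had 44 windows for 32 of the 42 members, each from 250 bases before a start site to 50 bases after it. Windows were searched on both strands for GAAA, any 2 bases and GAAA again, the core of the interferon-stimulated response element (ISRE). A match was found for 9 of the 32 genes (28.1%), against 1079 of all 27025 genes in the table (3.99%). The array held 6 of these 9 genes, out of 9 array genes with a window (66.7%), and the others were Trim21, Trim26 and Trim2. The array genes without a match were Trim6, Trim30b and Trim30c. In WT cells ADP-Hep changed them by 0.28, 1.60 and 1.27 on the log2 scale. The 6 array genes with a match changed by 0.16 (Trim5) to 1.46 (Trim30d). Whether a match goes with the response was not tested. Of 18 interferon-stimulated genes outside the TRIM family with a window, 11 held a match (61.1%). Counting only matches that begin before the start site, the shares were 5 of 32 members (15.6%), 4 of 9 array genes (44.4%), 9 of 18 other interferon-stimulated genes and 3.46% of all genes. A match describes letters only and shows no binding.

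The array promoters with a match before the start site are shown first. Each is given as the 150 bases that end at the base before the start, 5′ to 3′ on the gene's strand. The match is in capitals, and the capitals read on the opposite strand give the motif as written above. Trim30a is chr7:104465194-104465343, Trim30d chr7:104507850-104507999, Trim12c chr7:104353350-104353499 and Trim5 chr7:104288107-104288256, all on the minus strand.
Trim30a: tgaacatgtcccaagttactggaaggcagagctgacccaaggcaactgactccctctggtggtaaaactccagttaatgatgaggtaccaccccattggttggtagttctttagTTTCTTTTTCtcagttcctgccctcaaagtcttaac
Trim30d: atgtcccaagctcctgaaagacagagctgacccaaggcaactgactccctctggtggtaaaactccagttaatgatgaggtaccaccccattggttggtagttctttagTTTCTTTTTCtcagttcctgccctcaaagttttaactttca
Trim12c: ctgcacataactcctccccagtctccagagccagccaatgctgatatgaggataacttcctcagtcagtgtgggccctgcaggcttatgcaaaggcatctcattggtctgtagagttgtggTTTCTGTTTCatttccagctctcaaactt
Trim5: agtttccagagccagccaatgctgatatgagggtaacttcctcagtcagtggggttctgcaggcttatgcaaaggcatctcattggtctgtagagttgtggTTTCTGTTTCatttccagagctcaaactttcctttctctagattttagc
The matches begin 36, 41, 29 and 49 bases before the start in the order shown. Trim30a and Trim30d share an unbroken run of 118 bases and Trim12c and Trim5 one of 63 bases, whereas Trim30a and Trim12c share at most 7. The matches within each of these pairs are thus not independent, and kinship of the Trim30 and Trim12c promoters was not tested by alignment.

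In 4 further members the match is shown with its flanks in 30 bases, since it lies either just after the start or farther upstream. Trim21 is chr7:102565447-102565476 (minus strand), Trim12a chr7:104315466-104315495 (minus), Trim34a chr7:104244457-104244486 (plus) and Trim26 chr17:36836979-36837008 (plus).
Trim21: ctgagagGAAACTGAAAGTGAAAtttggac
Trim12a: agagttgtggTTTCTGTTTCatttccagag
Trim34a: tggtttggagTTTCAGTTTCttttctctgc
Trim26: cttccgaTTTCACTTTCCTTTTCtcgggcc
All 30 bases shown for Trim12a stand in the Trim5 promoter above, and 28 of them in an unbroken run in that of Trim12c, so this match is not independent of theirs in the count over array genes. Trim21 and Trim26 each hold 2 overlapping matches. They begin at base 14 in Trim21, counted from the start site as base 1, and 160 bases before the start in Trim26, while those of Trim12a and Trim34a begin at base 11. The last member with a match, Trim2, has it at base 29. For NF-kB the kappaB letters GGGA, any 2 bases and then TTCC or TCCC were searched the same way, and 2 of 32 members held one (6.25%; Trim28 and Trim7), against 2.38% of all genes. Neither motif was found in the windows of Trim13, the member with the largest WT response.

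WT cells with ADP-Hep were set against WT cells with PBS to ask how TRIM genes respond where the sensor is present. ADP-Hep raised the ER ligase Trim13, the 4 Trim30 paralogs, Trim21, Trim56 and 4 of the other chromosome 7 and antiviral genes (Trim34a, Trim12a, Trim12c and Trim26), by 1.31-fold to 3.15-fold. It lowered Trim16, Trim47, Trim65 and Trim37, by 1.37-fold to 2.2-fold, and Trim28 and Trim59 by less. Each change is given as a log2 fold change with an approximate SE and a Benjamini-Hochberg adjusted p from the quasi-likelihood test of edgeR over 12261 genes, and a gene was called at an adjusted p under 0.05. In WT cells 14 of 41 tested members were higher (34.1%) and 8 lower (19.5%) with ADP-Hep, 22 in all (53.7%), beside 31.9% of all genes higher, 31.6% lower and 63.5% called either way. The share of members higher was near that of all genes, and the members' median change was 0.01 against -0.01 for all genes. A change of 2-fold or more was called in 8 members, beside 13.6% of all genes. The WT ADP-Hep and WT PBS libraries did not overlap for 21 members (51.2%), 13 above and 8 below, against 65.9% of all genes. With library totals as the only scaling, which moves the median of all genes by -0.11, 12 members were higher and 16 lower, and against a 1.5-fold threshold 8 were higher and 2 lower. For such other settings, here and below, no share of all genes is given. Their counts thus show only how the members' calls moved, not how members compare with all genes.

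The increases were mostly among the 15 tested antiviral and interferon-linked members. Of these 11 rose (73.3%, beside 31.9% of all genes), 1 fell and 3 were not called, with a median of 0.59. By domain, 10 of the 25 tested members with a C-terminal SPRY domain rose (40%, beside 31.9% of all genes) and 4 fell (16%, beside 31.6%). All 10 that rose are antiviral members counted above, so the domain count is no separate result. Of the 26 members outside the antiviral group 3 rose (11.5%) and 7 fell (26.9%, beside 31.6% of all genes). All 9 genes of the chromosome 7 array belong to the antiviral group, so their count is a part of that one. In the array 7 of 9 rose (77.8%) and 0 fell, with a median of 0.91. Trim5 and Trim6, a ligase that makes unanchored chains for IKKε, were the array genes not called (Trim5 0.16 ± 0.14, adjusted p = 0.328; Trim6 0.28 ± 0.16, adjusted p = 0.127).

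Trim13 (Ensembl ENSMUSG00000035235; chromosome 14, 61598247 to 61605946, plus strand) encodes a ligase anchored in the endoplasmic reticulum and active in the degradation of proteins from there. It had 21.7, 22.1 and 24.9 CPM in WT ADP-Hep libraries, against 7.55, 6.83 and 7.22 CPM in WT PBS libraries. All 3 ADP-Hep values lay far above the PBS values, with no overlap, and the change was 1.65 ± 0.09 (a 3.15-fold increase, adjusted p = 4.79e-14), the largest among the members. In sequence, 14.2% of the 50-base stretches of its exons also occur in the pseudogene Gm9359.

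Trim30a (Ensembl ENSMUSG00000030921; chromosome 7, 104409025 to 104465193, minus strand) had 278, 299 and 238 CPM with ADP-Hep, against 119, 117 and 126 CPM with PBS in WT cells. The lowest ADP-Hep library was still well above the highest PBS library, and the gene rose by 1.17 ± 0.07 (adjusted p = 1.16e-12). Its paralog Trim30d (chromosome 7, 104470014 to 104507849, minus strand) had 56.9, 61.8 and 46.3 CPM with ADP-Hep, against 21.9, 19.5 and 19.5 CPM with PBS, without overlap. Its change was 1.46 ± 0.10 (adjusted p = 1.5e-10). For both genes WT ADP-Hep replicate 3 was the lowest of its group. These paralogs share 5.98% of the 50-base stretches of Trim30a, so reads there may have been counted for either.

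Trim30c had 9.65, 10.6 and 9.15 CPM with ADP-Hep, against 4.1, 3.49 and 4.5 CPM with PBS in WT cells (1.27 ± 0.13, adjusted p = 3.06e-09). The weakly expressed Trim30b had 2.2, 3.07 and 1.73 CPM with ADP-Hep, against 0.846, 0.712 and 0.806 CPM with PBS (1.60 ± 0.34, adjusted p = 0.000272). Neither gene overlapped between the groups, so all 4 Trim30 paralogs rose, by at least 1.17 on the log2 scale.

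Trim21 (Ensembl ENSMUSG00000030966; chromosome 7, 102557921 to 102565486, minus strand), the cytosolic antibody receptor that marks antibody-coated virions for the proteasome, had 58.3, 59.96 and 54.2 CPM with ADP-Hep, against 26.8, 25.1 and 26.5 CPM with PBS. The groups did not overlap, and Trim21 rose by 1.14 ± 0.07 (adjusted p = 7.28e-14). Trim56, a ligase reported to act on STING and cGAS, had 113, 123 and 122 CPM, against 62.6, 52.9 and 57.4 CPM (1.04 ± 0.06, adjusted p = 1.23e-14), with no overlap.

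Smaller increases were called for Trim34a (0.91 ± 0.10), Trim12a (0.59 ± 0.08) and Trim12c (0.49 ± 0.08), mouse relatives of the primate capsid-binding restriction factors TRIM34 and TRIM5, and for Trim26 (0.38 ± 0.06), reported as a ligase of nuclear IRF3. Trim34a shares 39.8% of its 50-base stretches with Trim34b, and Trim12c shares 24.2% with Trim5, so the split of reads among them is uncertain. Trim25 had 244, 268 and 245 CPM with ADP-Hep, against 235, 237 and 227 CPM with PBS, without overlap, a change of 0.12 ± 0.05 (adjusted p = 0.0319). This call was lost with library totals as scaling (adjusted p = 0.91), in a fit of the WT groups alone, with no filter beyond 1 count, against a 1.5-fold threshold, and on leaving out WT PBS replicate 1 or 3 or WT ADP-Hep replicate 2 (adjusted p up to 0.213 for these libraries). Among members outside the antiviral group, the microtubule-binding Trim36 rose by 0.67 ± 0.11 (10.7 ± 1.08 CPM with ADP-Hep and 6.81 ± 0.801 CPM with PBS; adjusted p = 7.38e-06), and Trim24, a cofactor of nuclear receptors whose libraries overlapped, by 0.21 ± 0.07 (adjusted p = 0.0136). The call of Trim24 was lost with library totals and without WT PBS replicate 3 or WT ADP-Hep replicate 2.

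**Figure D2:**
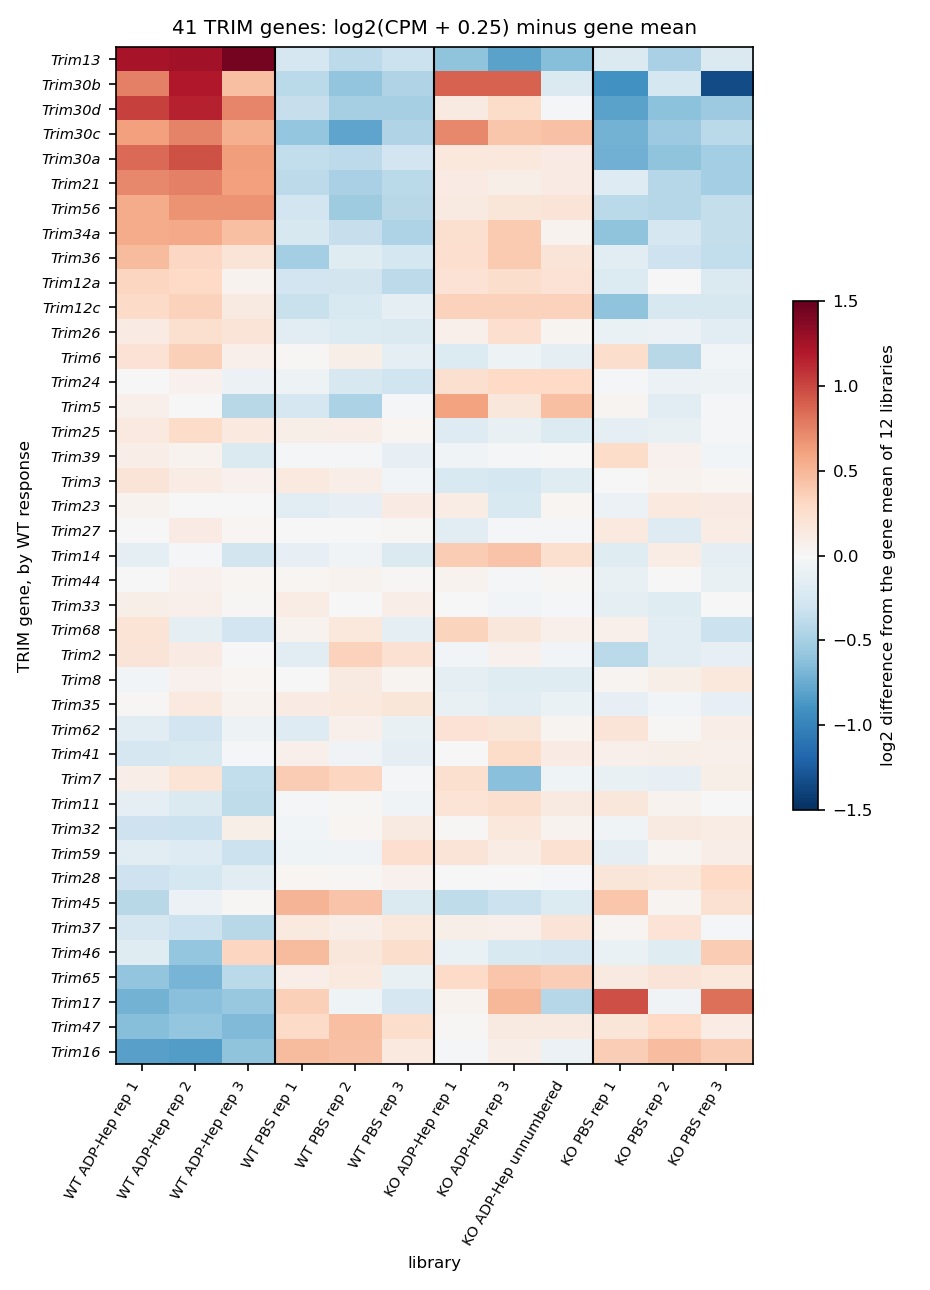
Level of the 41 tested TRIM genes in each of the 12 libraries, as log2(CPM + 0.25) minus the gene's mean over libraries (red above, blue below), with genes ordered by their WT response and colours ending at 1.5 either way. The top rows, from Trim13 to Trim34a, are red in the 3 WT ADP-Hep columns, and in the 3 KO ADP-Hep columns Trim13 is blue while Trim30a, Trim21 and Trim56 are pale red; Trim47 and Trim16 at the bottom are blue in WT ADP-Hep columns.

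Trim16 (Ensembl ENSMUSG00000047821; chromosome 11, 62820231 to 62850808, plus strand) lacks a RING domain and takes part in the clearance of damaged lysosomes, as known from human cells. It had 8.51, 8.38 and 9.92 CPM with ADP-Hep, against 21.1, 20.6 and 16.8 CPM with PBS in WT cells. Every ADP-Hep library lay below every PBS library, and the gene fell by 2.2-fold (-1.14 ± 0.10, adjusted p = 1.82e-10), the largest called decrease among the members. Of its exon length, 5.19% overlaps Fbxw10 on the same strand.

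Trim47 (chromosome 11, 116105752 to 116127210, minus strand), a reported regulator of NF-kB signalling, had 19.99, 20.8 and 19.8 CPM with ADP-Hep, against 38.3, 43.05 and 37.7 CPM with PBS (-0.97 ± 0.07, adjusted p = 5.7e-12). Its neighbour Trim65 (chromosome 11, 116121846 to 116131128, minus strand), the ligase that attaches K63-linked chains to MDA5, had 19.3, 17.8 and 21.8 CPM, against 31.04, 32.3 and 26.8 CPM (-0.62 ± 0.08, adjusted p = 1.68e-07). Both genes were lower in all 3 ADP-Hep libraries than in any PBS library. They overlap on the same strand over 225 bases, which is 8.23% of the exon length of Trim47 and 3.82% of that of Trim65, so a part of the reads may belong to either. Trim65 was the antiviral member that fell.

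Trim37, a peroxisomal ligase mutated in human mulibrey nanism, had 43.04, 40.9 and 38.3 CPM with ADP-Hep, against 56.7, 55.00 and 57.04 CPM with PBS (-0.46 ± 0.06, adjusted p = 4.58e-07). Trim28 (KAP1), the co-repressor of KRAB zinc-finger proteins that silences endogenous retroviruses, had 106, 109.7 and 118 CPM, against 135, 134 and 138 CPM (-0.29 ± 0.05, adjusted p = 1.32e-05). For both, the highest ADP-Hep library was below the lowest PBS library. Trim59 had 44.6, 43.7 and 39.7 CPM with ADP-Hep, against 47.5, 48.2 and 59.4 CPM with PBS (-0.28 ± 0.08, adjusted p = 0.00359). WT PBS replicate 3 was the highest of its group for Trim59, and without it the adjusted p was 0.0581. The remaining decreases were those of Trim32 (-0.26 ± 0.09, adjusted p = 0.0143), a muscle-disease ligase with NHL repeats whose libraries overlapped, and Trim11 (-0.20 ± 0.08, adjusted p = 0.0252). Either call was lost on leaving out any of 3 libraries (adjusted p up to 0.115 and 0.0909), and that of Trim11 also with DESeq2.

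Of 10 tested members listed as regulators of NF-kB and TAK1 signalling, 2 rose (Trim13 and Trim30a), 2 fell (Trim47 and Trim59) and 6 were not called. Trim30a stands in the antiviral group too, so both counts hold it. The share called was 40%, beside 63.5% of all genes. Trim8, one of the most abundant members per kb, had 134, 145 and 140.4 CPM with ADP-Hep, against 138, 151 and 143 CPM with PBS, overlapping values (-0.044 ± 0.05, adjusted p = 0.438). Trim23, which joins a RING to a GTPase domain, Trim27, Trim39 and Trim62, reported as a ligase of CARD9, had changes of 0.061, 0.055, 0.072 and -0.11. Trim45 had a change of -0.44 ± 0.20 (adjusted p = 0.056). Among the 3 tested chromatin cofactors Trim24 rose, Trim28 fell and Trim33, which binds SMAD proteins, had -0.0093 ± 0.05 (adjusted p = 0.891). The NHL-repeat members Trim2 and Trim3 had -0.040 and 0.065, and Trim46, which bundles microtubules in axons, had -0.59 (adjusted p = 0.0796). Members not called in WT cells also included Trim14 (0.0070 ± 0.08), Trim35 (-0.079), Trim41 (-0.13), Trim44 (-0.0054), Trim68 (-0.038), Trim7 (-0.20) and Trim17 (-0.94 ± 0.43, adjusted p = 0.0597).

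In KO cells the same comparison asked what response to ADP-Hep was left without Alpk1. The Trim30 paralogs, Trim12c, Trim34a, Trim56, Trim36, Trim5, Trim21, Trim14 and Trim12a rose in KO cells, by 0.36 to 1.60 on the log2 scale, while Trim16, Trim8, Trim3 and Trim28 fell. Trim13, the member that rose most in WT cells, had lower values with ADP-Hep than with PBS. Here 14 of 41 members were higher (34.1%) and 6 lower (14.6%), 20 in all (48.8%), beside 13.7%, 15.3% and 28.9% of all genes. The median change was 0.09 for members and 0.01 for all genes. A 2-fold change was called in 2 members, beside 1.87% of all genes, and 24 members did not overlap between the groups (58.5%), 18 above and 6 below, beside 42.1% of all genes. Against a 1.5-fold threshold 1 member was higher and 0 lower. Of the 15 antiviral members 12 rose (80%) and 0 fell, with a median of 0.50. The chromosome 7 array, a part of that group, had 8 of 9 genes higher (88.9%), with a median of 0.70.

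The largest KO increases were those of the Trim30 paralogs. Trim30b had 2.43, 2.43 and 0.995 CPM in KO ADP-Hep libraries, the last of them the library without a replicate number, against 0.522, 0.958 and 0.322 CPM in KO PBS libraries (1.60 ± 0.39, adjusted p = 0.00333). Trim30c had 10.5, 8.4 and 8.56 CPM, against 3.73, 4.19 and 4.67 CPM (1.14 ± 0.13, adjusted p = 3.94e-07). For Trim30b the lowest ADP-Hep and the highest PBS library nearly met, while those of Trim30c were well apart.

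Trim30d had 30.5, 33.8 and 27.3 CPM with ADP-Hep, against 15.8, 18.03 and 19.00 CPM with PBS in KO cells (0.78 ± 0.11, adjusted p = 2.29e-05). Trim30a had 172, 171 and 167 CPM, against 93.2, 101 and 108 CPM (0.76 ± 0.07, adjusted p = 2.72e-08). Both were above the PBS libraries in all 3 ADP-Hep libraries. Increases of 0.36 to 0.70 were called for Trim12c (0.70 ± 0.08), Trim34a (0.62 ± 0.11), Trim56 (0.57 ± 0.06), Trim36 (0.57 ± 0.11), Trim5 (0.50 ± 0.13, adjusted p = 0.00591), Trim21 (0.49 ± 0.07), Trim14 (0.41 ± 0.08) and Trim12a (0.36 ± 0.08). Trim24 (0.34 ± 0.07) and Trim26 (0.23 ± 0.06) rose less. The call of Trim5 was lost without KO ADP-Hep replicate 1 (adjusted p = 0.0629).

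Of the decreases in KO cells, Trim16 had 14.98, 16.3 and 14.3 CPM with ADP-Hep, against 19.6, 20.96 and 19.8 CPM with PBS, with no overlap (-0.42 ± 0.09, adjusted p = 0.0012). Trim8 had 124, 122 and 121 CPM, against 142, 146 and 155 CPM, again with no overlap (-0.27 ± 0.05, adjusted p = 0.000164). Trim13 had 5.88, 5.1 and 5.72 CPM, against 7.75, 6.41 and 7.73 CPM (-0.36 ± 0.12, adjusted p = 0.0241). Every KO ADP-Hep library lay below every KO PBS library for Trim13, but leaving out any of 4 libraries (KO PBS replicate 1 or 3, KO ADP-Hep replicate 3 or the unnumbered one) lost the call (adjusted p up to 0.101), as did DESeq2. Trim45 had 2.18, 2.28 and 2.49 CPM, against 3.95, 2.99 and 3.46 CPM (-0.57 ± 0.21, adjusted p = 0.0432), also without overlap, and its call was lost on leaving out any of 5 of the 6 KO libraries, KO PBS replicate 2 being the exception. Trim28 (-0.22 ± 0.05) and the NHL-repeat member Trim3 (-0.25 ± 0.07) fell as well.

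**Figure D3:**
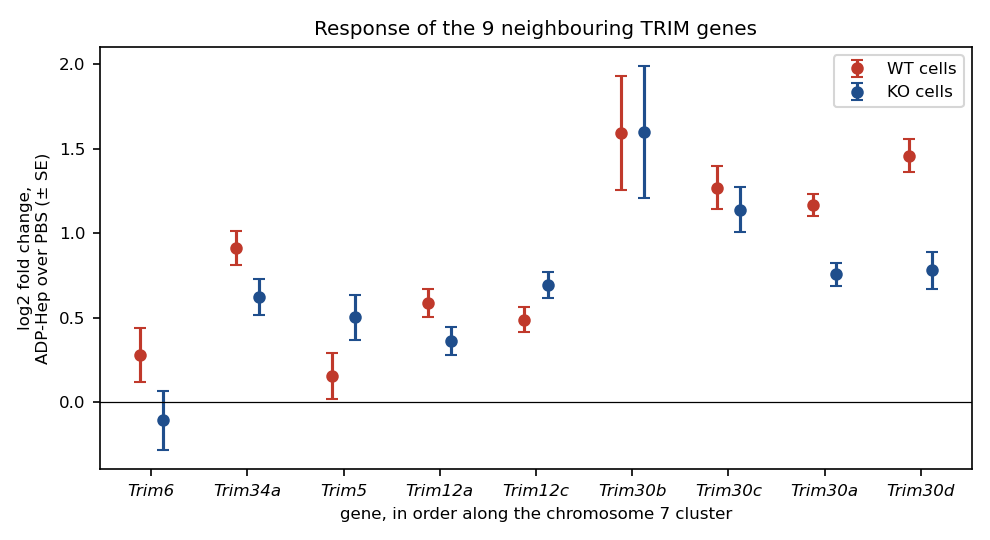
Log2 fold change ± SE with ADP-Hep against PBS for the 9 genes of the chromosome 7 array in their order along the chromosome, WT cells (red) left of KO cells (blue). The 4 Trim30 genes have the largest WT changes, from 1.17 to 1.60, and Trim6 is the gene called in neither genotype.

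The difference between the responses, WT minus KO, was tested as an interaction. It was positive for Trim13, Trim30d, Trim21, Trim56 and Trim30a, whose change was more upward in WT cells, and negative for Trim47, Trim65, Trim16, Trim37 and Trim59, which fell in WT cells, and for Trim14, which rose in KO cells. A difference was called in 15 of 41 members (36.6%), 8 positive (19.5%) and 7 negative (17.1%), beside 49.5%, 24.6% and 24.9% of all genes. The members' share was thus below that of all genes, and 1 member differed by 2-fold or more, beside 11.7% of all genes. With library totals as scaling, which moves the median of all genes by -0.15, 5 were positive and 16 negative. Against a 1.5-fold threshold there were 1 positive and 2 negative members.

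Trim13 had the largest difference, 2.02 ± 0.15 (adjusted p = 4.55e-11). It averaged 22.9 ± 1.79 CPM in WT ADP-Hep cells and 7.2 ± 0.359 CPM in WT PBS cells, and 5.57 ± 0.409 CPM in KO ADP-Hep cells and 7.3 ± 0.769 CPM in KO PBS cells (SD, n = 3 each). Trim13 mRNA was thus high in the 3 WT ADP-Hep libraries and within 5.10 to 7.75 CPM in the other 9.

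For Trim30d the WT response exceeded the KO response by 0.68 ± 0.15 (adjusted p = 0.000932), for Trim21 by 0.65 ± 0.10 (adjusted p = 4.31e-06), for Trim56 by 0.47 ± 0.08 (adjusted p = 2.48e-05) and for Trim30a by 0.41 ± 0.09 (adjusted p = 0.00102). These 4 genes rose in both genotypes, and more in WT cells. Trim21 averaged 57.5 ± 2.97 CPM in WT ADP-Hep cells and 26.2 ± 0.906 CPM in WT PBS cells, and 38.2 ± 0.501 CPM in KO ADP-Hep cells and 27.3 ± 3.19 CPM in KO PBS cells. No difference was called for Trim30b (-0.0035 ± 0.34, adjusted p = 0.995), Trim30c (0.13 ± 0.19, adjusted p = 0.597), Trim12a (0.22 ± 0.12), Trim12c (-0.20 ± 0.11), Trim34a (0.29 ± 0.15), Trim36 (0.10 ± 0.16) or Trim26 (0.15 ± 0.08), which rose in both. The approximate SE printed for Trim30b lies below that of its KO response alone (0.39), so it understates the spread of the difference. Even so it leaves room for a difference of either sign in Trim30b. The array had 2 of 9 members with a called difference (22.2%, beside 49.5% of all genes), Trim30a and Trim30d.

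Of the members that fell in WT cells, negative differences were called for Trim47 (-0.86 ± 0.10, adjusted p = 6.13e-08), Trim65 (-0.81 ± 0.11, adjusted p = 7.46e-07), Trim16 (-0.72 ± 0.13, adjusted p = 8.91e-05), Trim37 (-0.49 ± 0.09), Trim59 (-0.46 ± 0.11) and Trim11 (-0.32 ± 0.11), but not for Trim28 (-0.065 ± 0.07) or Trim32 (-0.26 ± 0.13). The called difference of Trim11 (adjusted p = 0.0182) was lost with DESeq2. In KO cells Trim47 had 31.7, 34.3 and 34.5 CPM with ADP-Hep, against 35.5, 38.6 and 33.7 CPM with PBS (-0.11 ± 0.07, adjusted p = 0.24). Trim65 had 35.6, 38.9 and 37.5 CPM in KO ADP-Hep libraries, against 31.96, 33.2 and 32.5 CPM in KO PBS libraries (0.19 ± 0.07, adjusted p = 0.0545). The Trim47 values overlapped in KO cells, whereas all 3 KO ADP-Hep values of Trim65 lay above the KO PBS values, the opposite side from WT cells.

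Of the 15 antiviral members 5 had a positive and 2 a negative difference (46.7% called, beside 49.5% of all genes). The negative ones were Trim65 and Trim14, a RING-less adaptor of MAVS signalling at mitochondria in human cells. Trim14 had 59.7, 61.9 and 54.1 CPM in KO ADP-Hep libraries, against 40.4, 49.6 and 41.5 CPM in KO PBS libraries, without overlap, and 41.6, 45.1 and 37.7 CPM in WT ADP-Hep libraries, against 41.9, 44.04 and 39.4 CPM in WT PBS libraries, with overlap. The interaction was -0.40 ± 0.11 (adjusted p = 0.00426). Of the exon length of Trim14, 31.3% overlaps Nans on the opposite strand, and the strand setting of the counting is not given, so reads there cannot be assigned with certainty. Small positive differences were called for Trim3 (0.32 ± 0.10), Trim8 (0.22 ± 0.07) and Trim25 (0.19 ± 0.07, adjusted p = 0.0192). None of these 3 was called with library totals as scaling, and that of Trim25 was also lost without WT ADP-Hep replicate 2, KO PBS replicate 3 or the unnumbered KO ADP-Hep library.

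**Figure D4:**
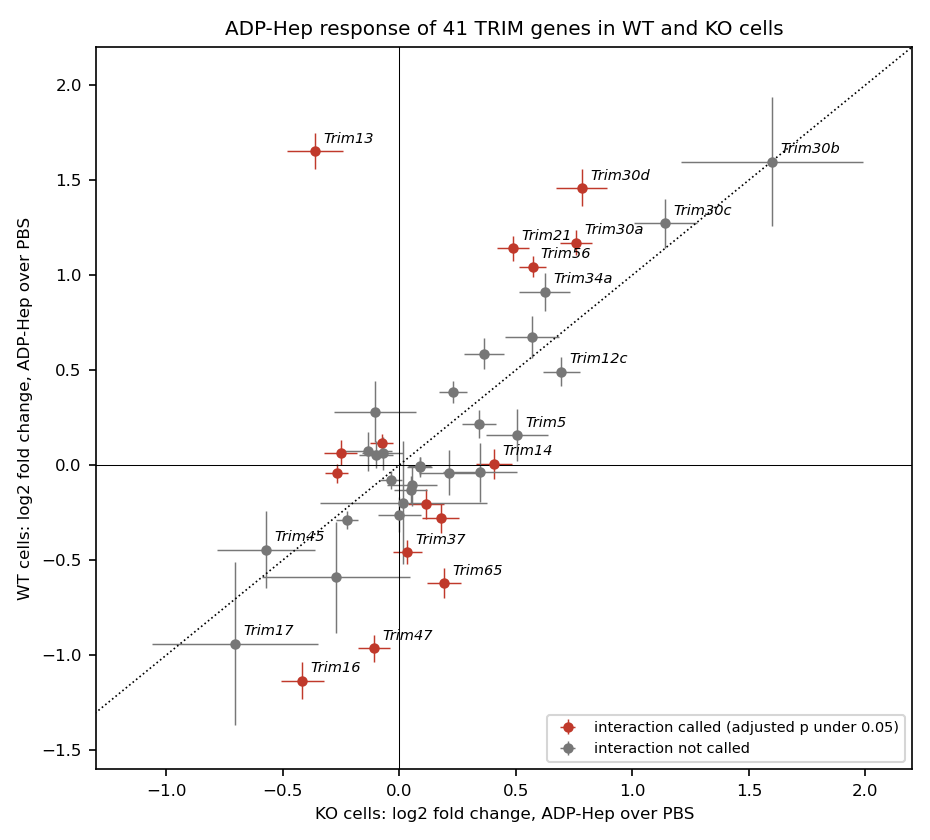
WT response (y axis) against KO response (x axis) of the 41 tested TRIM genes, as log2 fold change with ADP-Hep over PBS ± SE, with genes in red where the interaction was called and the dotted line marking equal responses. Trim13 stands alone at the upper left (WT 1.65, KO -0.36), Trim30b lies on the dotted line at 1.60, and Trim47 and Trim65 lie far below it. Both axes use all libraries of a genotype and share none.

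**Figure D5:**
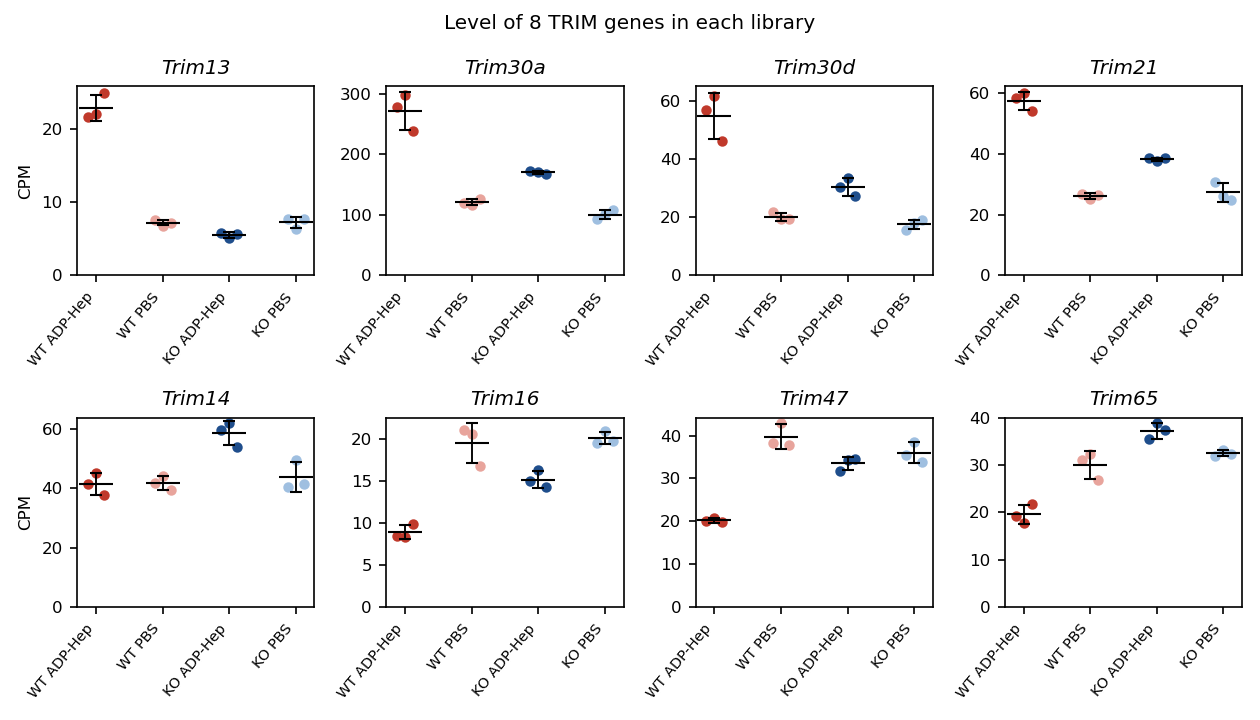
CPM of 8 TRIM genes in every library (points), with the group mean and SD as bars, for WT ADP-Hep, WT PBS, KO ADP-Hep and KO PBS cells. Trim13 is high in WT ADP-Hep cells alone of the 4 groups, Trim30a, Trim30d and Trim21 are intermediate in KO ADP-Hep cells, and Trim16, Trim47 and Trim65 are lowest in WT ADP-Hep cells.

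Under PBS the comparison of KO with WT cells asked whether TRIM levels differ before stimulation. A small share of members was called, near that of all genes. Trim35 and Trim30a were lower and Trim28 higher in KO cells, by 0.17 to 0.27 on the log2 scale. Trim2, Trim25 and Trim33 were lower as well, by 0.16 to 0.40. The test called 1 member higher (2.44%) and 5 lower (12.2%) in KO cells, 6 in all (14.6%), beside 5.57%, 5.82% and 11.4% of all genes, and 0 of them differed by 2-fold, beside 0.75% of all genes. The KO and WT libraries did not overlap for 10 members (24.4%), beside 27.7% of all genes, and the members' median was 0.01. Trim35, which binds the glycolytic enzyme PKM2 in human cells, had 131, 138 and 130.4 CPM in KO PBS libraries, against 155, 157 and 161 CPM in WT PBS libraries, with no overlap (-0.24 ± 0.05, adjusted p = 0.00103), and was the one called member that stayed called whichever single library was left out. Trim30a had 93.2, 101 and 108 CPM in KO PBS, against 119, 117 and 126 CPM in WT PBS libraries (-0.27 ± 0.07, adjusted p = 0.0141), and this call was lost without WT PBS replicate 3 or KO PBS replicate 1 (adjusted p up to 0.0916).

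Trim28 was the member that was higher in KO cells, with 149.9, 148 and 162 CPM in KO PBS libraries, against 135, 134 and 138 CPM in WT PBS libraries (0.17 ± 0.05, adjusted p = 0.0215). Its groups did not overlap, but the call was lost without WT PBS replicate 1 or 2 or KO PBS replicate 3 (adjusted p up to 0.136). Trim2, an NHL-repeat ligase known from neurons, had 5.44, 6.47 and 6.68 CPM in KO PBS, against 6.51, 9.32 and 8.62 CPM in WT PBS libraries, overlapping values (-0.40 ± 0.13, adjusted p = 0.0494). Its call was lost on leaving out any of 10 of the 12 libraries, the exceptions being WT PBS replicate 1 and WT ADP-Hep replicate 3. Trim25, with 202, 205 and 216 CPM in KO PBS libraries (-0.16 ± 0.05, adjusted p = 0.0263), and Trim33 (-0.18 ± 0.05, adjusted p = 0.028) were lower by a small amount, and each call was lost on leaving out any of 4 PBS libraries (for Trim25 replicates 1 and 2 of both genotypes, for Trim33 replicates 1 and 3 of WT and 1 and 2 of KO). A fit of the PBS groups alone called 3 lower. With the replicate number as a block, 1 was higher and 3 lower over the 11 numbered libraries, and 1 and 5 over the PBS groups alone. Among 15 antiviral members 0 were higher and 2 lower (13.3% called, beside 11.4% of all genes).

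Under ADP-Hep the comparison asked how the stimulated cells of both genotypes differ. KO cells had less Trim13, Trim30d, Trim30a, Trim21 and Trim56 mRNA and more Trim65, Trim16, Trim47 and Trim14 mRNA than WT cells. In KO cells 14 members were higher (34.1%) and 11 lower (26.8%) than in WT cells, 25 of 41 (61.0%), beside 32.8%, 32% and 64.8% of all genes, so the members were called about as often as genes at large. A difference of 2-fold or more was called in 1 member, Trim13, beside 13.7% of all genes. The libraries did not overlap for 27 members (65.9%), 14 above and 13 below, beside 68.6% of all genes. With library totals as scaling, which moves the median of all genes by 0.15, 17 were higher and 7 lower, and against a 1.5-fold threshold 3 were higher and 2 lower. This comparison uses the ADP-Hep libraries of both responses described above, so it is no further evidence for them.

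Trim13 was 4.03-fold lower in KO than in WT cells under ADP-Hep (-2.01 ± 0.10, adjusted p = 1.6e-15), Trim30d 1.84-fold (-0.88 ± 0.09, adjusted p = 1.03e-07) and Trim30a 1.6-fold (-0.68 ± 0.06, adjusted p = 7.52e-09). None of the 3 overlapped between the genotypes. Lower in KO cells as well were Trim21 (-0.59 ± 0.06), Trim56 (-0.47 ± 0.05), Trim6 (-0.42 ± 0.16, adjusted p = 0.0243), Trim25 (-0.36 ± 0.05), Trim3 (-0.35 ± 0.07), Trim34a (-0.32 ± 0.09), Trim35 (-0.20 ± 0.05) and Trim8 (-0.19 ± 0.05). Of these, Trim6, Trim34a, Trim35 and Trim8 were not called with library totals as scaling, and the call of Trim6 was lost without WT ADP-Hep replicate 2, KO ADP-Hep replicate 1 or the unnumbered library. Trim25 had 194, 206 and 192 CPM in KO ADP-Hep libraries, against 244, 268 and 245 CPM in WT ADP-Hep libraries, so every KO library was lower (adjusted p = 3.66e-07).

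Higher in KO cells under ADP-Hep were Trim65, at 37.3 CPM in KO against 19.6 CPM in WT cells (0.94 ± 0.08, adjusted p = 5.62e-11), and Trim16, at 15.2 CPM in KO against 8.94 CPM in WT cells (0.78 ± 0.10, adjusted p = 2.2e-07). Trim17, known from neurons as a ligase of MCL1, had 0.797, 1.18 and 0.497 CPM in KO ADP-Hep libraries, against 0.366, 0.401 and 0.431 CPM in WT ADP-Hep libraries (0.98 ± 0.42, adjusted p = 0.0446). These are low levels, the call was lost without any of 7 libraries (all 3 of WT ADP-Hep, both numbered KO ADP-Hep libraries, WT PBS replicate 2 and KO PBS replicate 3), and 19.0% of the exon length of Trim17 overlaps the histone gene Hist3h2a on the same strand. Trim47 (0.72 ± 0.07), Trim5 (0.52 ± 0.13), Trim14 (0.48 ± 0.08), Trim37 (0.44 ± 0.06), Trim11 (0.42 ± 0.08), Trim59 (0.39 ± 0.08), Trim62 (0.34 ± 0.10), Trim41 (0.31 ± 0.07), Trim32 (0.28 ± 0.09), Trim24 (0.27 ± 0.07) and Trim28 (0.24 ± 0.05) were higher in KO cells too, Trim32 not without WT ADP-Hep replicate 1 or 2. Of the 26 members outside the antiviral group 11 were higher and 4 lower (57.7% called). Of the 15 antiviral members 3 were higher and 7 lower (66.7% called), beside 64.8% of all genes called.

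Genes of the TRIM family that go by other symbols were read beside the members. Mefv, encoding the inflammasome sensor pyrin, averaged 37.8 ± 1.36 CPM in WT ADP-Hep cells and 3.36 ± 0.458 CPM in WT PBS cells (SD, n = 3 each; 3.52 ± 0.10, adjusted p = 5.21e-20), a larger change than that of any member. It averaged 2.01 ± 0.397 CPM in KO ADP-Hep cells and 2.39 ± 0.165 CPM in KO PBS cells (-0.19 ± 0.18, adjusted p = 0.498), and the difference of the responses was 3.71 ± 0.23 (adjusted p = 7.09e-13). Pml, which builds nuclear bodies, rose in both genotypes (WT 0.29 ± 0.08, adjusted p = 0.0034; KO 0.50 ± 0.08, adjusted p = 4.87e-05), and no difference between them was called (-0.22 ± 0.11, adjusted p = 0.111). The microtubule-associated Mid1 (0.32 ± 0.22) and Mid2 (0.60 ± 0.50) were not called in WT cells. Cmya5 with 26 counts and Rnf207 with 13 were not tested.

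Of the enzymes that feed ubiquitin to TRIM ligases, 9 of 13 tested E1 and E2 genes rose and 0 fell in WT cells, with a median of 0.43, against 2 and 0 in KO cells, and 7 had a positive difference of the responses. These called shares (69.2%, 15.4% and 53.8%) stand beside 63.5%, 28.9% and 49.5% of all genes called either way, of which 31.9%, 13.7% and 24.6% were higher. The smallest p-values were those of Ube2d3 (0.47 ± 0.05), an E2 used by many RING ligases, Ube2n (0.58 ± 0.06), which builds K63-linked chains, and Ube2l6 (0.67 ± 0.07), the E2 of ISG15. A list of 17 genes of RIG-I, MDA5 and cGAS-STING signalling, on which several members act, also held Traf6 and the TAK1 complex genes Map3k7, Tab1, Tab2 and Tab3. Of these 17 genes 12 rose and 3 fell in WT cells (88.2% called) and 6 rose and 1 fell in KO cells (41.2%). They were led by the MDA5 gene Ifih1 (1.34 ± 0.06), the kinase gene Ikbke (1.73 ± 0.07) and Traf3 (1.04 ± 0.05). Ifih1 and Irf7 also stand in the list that follows, so the 2 lists are not separate. Of 26 interferon-stimulated genes outside the family, 26 rose in WT cells (median 2.33) and 25 in KO cells (96.2%, median 1.02), and 25 had a positive difference, with Gbp2 (3.10 ± 0.08), Rtp4 (2.43 ± 0.08) and Parp14 (2.56 ± 0.07) first by p. Of 15 NF-kB feedback genes, 14 rose in WT cells (93.3%, median 2.09), with Tnip3 (3.24 ± 0.05), Traf1 (5.45 ± 0.10) and Nfkbia (3.00 ± 0.06) first by p, and 2 rose and 3 fell in KO cells (33.3% called). For the Trim30 genes, Trim21 and Trim56 the KO change was positive, as it was in the 26 interferon-stimulated genes, 25 of them called. It was positive in 26 of the 41 tested members, among them Trim36 and Trim24 outside the antiviral group. A difference of the responses was called in 25 of the 26 interferon-stimulated genes, all positive. Of the 15 antiviral members it was called in 7, 5 positive and 2 negative (46.7%, beside 49.5% of all genes). Trim30b and Trim30c were among the 8 antiviral members not called, and Trim30b was weakly expressed with a wide SE. Trim13 and Mefv had negative KO values, that of Mefv not called. Whether members and these lists move by a shared route was not tested.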

How the data were processed

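RNA of 12 libraries in 4 groups of 3 was sequenced after a stranded mRNA kit, per the labels' protocols. The authors deposited raw counts of reads for each gene. The submitters' processing notes name FastQC, Trim Galore, STAR, featureCounts, RSEM, DESeq2, mm10 and hg38. How each was used, and the strand setting and gene annotation of the counting, is not stated, so reads of overlapping or near-identical genes may have been split or shared. Columns were matched to samples by name, and 1 KO ADP-Hep column, whose number is in no label, was kept unnumbered in its group. Of per-sample columns, 0 were left out.

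WT and KO mean log2 counts correlated across genes with r = 0.996 in the rows used, 0.0420 below them and 0.979 below them once KO columns were moved up by 1 row. Of the identifiers used, 37490 were found in GENCODE release M21 (mm10), which gave coordinates and merged exon lengths.

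CPM were scaled by TMM. The tests were edgeR 4.0.16 quasi-likelihood tests (R 4.3.3, limma 3.58.1) with robust estimation on 1 model of 4 group means, after filterByExpr, which kept 12261 genes, with Benjamini-Hochberg adjustment over them all. The biological coefficient of variation was 4.81%. The SE is the absolute change over the square root of F, an approximation. The model was also run on simulated counts with an equal spread for all genes, a simpler setting than these data. No result here rests on that run. Members, lists and the rule for members given in full were chosen with earlier results of these data known. That rule takes the largest called changes per comparison and the 3 highest levels. Trim56 and Trim14 were given library by library after their values were seen.

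Replicate numbers were checked by correlating deviations from the group means. With only 2 numbered KO ADP-Hep libraries, whose deviations mirror each other by construction, that group was left out of the check. Over the other 9 same-number pairs of libraries r ran from -0.221 to 0.199, with 4 over 0.1. Values so few and mixed cannot settle whether the numbers pair samples, and the main model has no block. Between WT PBS and KO PBS all 3 were over 0.1 (0.100 to 0.179), and there the block was fitted as well.

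Alternatives were DESeq2 1.42.0, its size factors in edgeR, library totals, a filter of 1 CPM in 3 libraries or of only 1 count, glmTreat against 1.5-fold, a replicate block, fits restricted to the groups compared and leaving out single libraries. The unblocked fit of numbered libraries, the PBS-only block and the realigned lower rows were added after seeing the data.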

Additional observations from a re-analysis of the deposited data

Results flagged for a closer look

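The ADP-Hep response differed between WT and KO cells, by the tested interaction, in 15 of the 41 members tested (36.6%), beside 49.5% of all genes. The differences, WT minus KO on the log2 scale from edgeR's quasi-likelihood test, were positive for Trim13 (2.02), Trim30d (0.68), Trim21 (0.65), Trim56 (0.47), Trim30a (0.41), Trim3 (0.32), Trim8 (0.22) and Trim25 (0.19). They were negative for Trim47 (-0.86), Trim65 (-0.81), Trim16 (-0.72), Trim37 (-0.49), Trim59 (-0.46), Trim14 (-0.40) and Trim11 (-0.32). Signs of the response were opposite in WT and KO cells for Trim13, Trim65, Trim37, Trim59, Trim3, Trim25 and Trim11, and of these 7 only Trim13 was called in both genotypes. Its call in KO cells (adjusted p = 0.0241) was lost without KO PBS replicate 1 or 3, KO ADP-Hep replicate 3 or the unnumbered KO ADP-Hep library (adjusted p up to 0.101), and with DESeq2. Groups of 3 libraries were too small for a search for single libraries that stand apart.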

How the results depend on the processing

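The counts of called members (higher and lower) were 14 and 8 for the WT response, 14 and 6 for the KO response, 8 and 7 for the interaction, 1 and 5 for KO against WT under PBS and 14 and 11 under ADP-Hep. Against a 1.5-fold threshold they were 8 and 2, 1 and 0, 1 and 2, 0 and 0, and 3 and 2. The shares of all genes given in this report are those of the main fit, so none stands beside the counts under other settings. With library totals as the only scaling, the lower members of the WT response numbered 16, those of the interaction 5 higher and 16 lower, and those lower in KO under ADP-Hep 7, and Trim44 in that last comparison, at -0.01 and not called with TMM, took the sign of the shift of all genes (0.15). Fits of the groups compared called 3 lower under PBS. Leaving out 1 library gave 12 to 14 higher and 6 to 10 lower for the WT response, 13 to 16 and 4 to 8 for the KO response, 7 to 10 and 7 to 9 for the interaction, 0 to 1 and 1 to 5 under PBS, and 12 to 14 and 10 to 12 under ADP-Hep. DESeq2 gave 14 and 7, 14 and 4, 8 and 6, 1 and 4, and 13 and 10, and all rows with the KO columns realigned 14 and 8, 14 and 6, 8 and 7, 1 and 5, and 13 and 11. Of members with an ISRE match 5 were left, and with a kappaB match 1, when only bases before the start counted.

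With the replicate number as a block, over the 11 numbered libraries, the counts were 14 and 8, 13 and 5, 7 and 7, 1 and 3, and 14 and 9 in the same order. For the cause of lost calls nothing beyond the settings themselves was tested. The SE of the WT response was 0.29 to 0.43 for Trim46, Trim7, Trim30b and Trim17, with at most 69 counts in a library, against 0.05 for Trim25 and Trim8.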
